A study of Rattus norvegicus with 6 samples.

Results

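The miR-15 and miR-16 family was followed here through 5 guide arms, chosen by name though with earlier results of these data known. They are rno-miR-15a-5p, rno-miR-15b-5p, rno-miR-16-5p, rno-miR-195-5p and rno-miR-497-5p, written below without the prefix of the species. All 5 had a row among the 1071 miRNA rows of the deposited table. Small RNA libraries had been made from fibroblasts of wild-type, untreated rat sciatic nerve, 3 from their extracellular vesicles (EV, exosomal in the labels) and 3 from the RNA inside the cells (Intracellular). The labels place all 6 samples in batch 1. The sources used here do not give the strain, sex and age of the rats, the culture medium or the way the vesicles were isolated. Nor do they say whether each replicate was a culture or an animal of its own, so a p-value speaks only of the scatter among these 6 samples, and that scatter may be technical.

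A miRNA guides an Argonaute protein to messenger RNAs mainly through its seed, bases 2 to 8 from the 5′ end, so miRNAs with the same seed share many targets. Guides of this family are known to repress cell cycle genes such as Ccnd1, Ccne1, Cdk6, Wee1 and Chek1 and the survival gene Bcl2, and thereby slow entry into division. The pair miR-15a and miR-16 is known in humans for its loss in chronic lymphocytic leukaemia, and miR-195 in mice for the arrest of heart muscle cell division after birth. miR-16-5p is also abundant in red blood cells and is widely used as a reference RNA in work on serum and vesicles.

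The sequences show why these miRNAs are treated as a family and which rows could be confused with each other. They are given 5′ to 3′ as deposited, with T for U and the seed in capitals.
miR-15a-5p: tAGCAGCAcataatggttt
miR-15b-5p: tAGCAGCAcatcatggtttaca
miR-16-5p: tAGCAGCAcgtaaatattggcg
miR-195-5p: tAGCAGCAcagaaatattggc
miR-497-5p: cAGCAGCAcactgtggtttgta
miR-322-5p: cAGCAGCAattcatgttttgga
miR-503-5p: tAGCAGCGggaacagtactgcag

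All 5 members have the same seed. A further 2 deposited rows, miR-322-5p and miR-503-5p, share bases 2 to 7 with them, so that 7 rows make up the wider seed family. miR-322-5p has the whole seed, while miR-503-5p departs from it at its last base (A8G, from miR-322-5p to miR-503-5p, counted from 1 at the 5′ end). Beyond the seed the members fall into closer pairs. miR-195-5p is identical to miR-16-5p at 19 of 21 positions and departs from it by G10A and T11G. miR-15b-5p matches miR-15a-5p at 18 of the 19 positions compared and departs from it by A12C (from miR-15a-5p to miR-15b-5p). The deposited miR-15a-5p ends after 19 bases, while the other 4 members have 21 or 22. The sources used here do not say how reads that could belong to both rows of a close pair were assigned, so the low counts of miR-15a-5p and miR-195-5p beside miR-15b-5p and miR-16-5p are uncertain.

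In the RefSeq table of build GRCr8, 4 of the 5 members were found, with the same letters as deposited. Mir15b and Mir16 stand side by side on chromosome 2 within Smc4, a condensin gene. Mir497 and Mir195 neighbour each other on chromosome 10. miR-16-5p is known to arise from a pair of precursors, one beside miR-15a and one beside miR-15b, and the mature RNA does not tell them apart.

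The EV libraries held 81211 to 105578 counts and the Intracellular libraries 1839047 to 8859302. Levels are given as CPM, the count divided by the library's total and multiplied by 1000000. On this scale a single count was 9.47 to 12.3 CPM in EV, against 0.113 to 0.544 CPM in Intracellular libraries. The TMM factor, a correction of library size, was 1.35, 1.26 and 1.17 in EV replicates 1, 2 and 3. It was 0.557 for Intracellular replicate 1, while the other Intracellular libraries had 0.963 and 0.935. All 7 fibroblast and mesenchymal marker miRNAs had counts in both groups and summed to between 435952 and 460553 CPM in EV, against between 474371 and 495643 CPM in Intracellular libraries. Single markers went both ways by mean CPM. In EV against Intracellular libraries, miR-152-3p had 33332 against 7535 and miR-214-3p 1098 against 248.6. The largest parts of the sum were lower in EV, miR-143-3p with 197030 against 219151 and miR-21-5p with 129126 against 152971. The 3 erythroid markers summed to 151.5 to 221.6 CPM in EV, against 2.26 to 5.98 CPM in Intracellular libraries, with miR-144-3p at 0 in EV. The liver miRNA miR-122-5p was at 11158 to 13723 CPM in EV, against 117.7 to 344.7 CPM in Intracellular libraries. The 4 leukocyte markers summed to at most 37.1 CPM in any library, and the 2 of myelinating glia to at most 47.4 CPM. The 2 endothelial markers summed to 259.9 to 435.7 CPM in EV, against 141.4 to 390.3 CPM in Intracellular libraries. The 3 muscle markers summed to 49.3 to 151.5 CPM in EV, against 9.06 to 12.6 CPM in Intracellular libraries. The neuronal list had a row for 1 of its 2 miRNAs, miR-9a-5p, at 1084 to 1321 CPM in EV, against 678.6 to 2052 CPM in Intracellular libraries. The 4 epithelial markers were at 0 in EV and summed to 1.09 to 1.81 CPM in Intracellular libraries. A level of that size was not detectable in EV, where 0 counts allow up to 10.7 CPM.

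Among the 5 members miR-16-5p carried most of the counts in the vesicles and in the cells. Over the 5 members it held 90.5% of 168 counts in EV, against 90.8% of 8807 counts in Intracellular libraries. miR-15b-5p followed with 7.74% in EV, against 8.50% in Intracellular libraries. The other 3 members, among them both miRNAs of the miR-195 and miR-497 cluster, shared what was left.

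miR-16-5p had 42, 65 and 45 counts in EV replicates 1, 2 and 3, which are 517, 616 and 487 CPM. In Intracellular replicates 1, 2 and 3 it had 387, 1798 and 5814 counts, which are 210.4, 543 and 656 CPM. The groups overlapped, and the lowest value of all was that of Intracellular replicate 1. The means were 540.1 ± 67.1 CPM in EV, against 469.8 ± 231.7 CPM in Intracellular libraries (SD, n = 3 each). By mean CPM it ranked 94 among the 552 known rat miRNAs in EV, against 75 in Intracellular libraries. After TMM scaling its levels were 383, 492 and 417 CPM in EV, against 378, 564 and 703 CPM in Intracellular libraries, and these overlapped as well. A lower level per library cannot be told apart from fewer vesicles that carry a miRNA or less of it in each.

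miR-15b-5p, the neighbour of miR-16 on chromosome 2, stood at a far lower level. It had 2, 7 and 4 counts in EV (24.6, 66.3 and 43.3 CPM) and 48, 198 and 503 counts in Intracellular libraries (26.1, 59.8 and 56.8 CPM). The groups overlapped almost wholly, with replicate 1 the lowest in each of them. The means were 44.8 ± 20.9 CPM in EV, against 47.5 ± 18.6 CPM in Intracellular libraries (SD, n = 3 each).

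**Figure D1:**
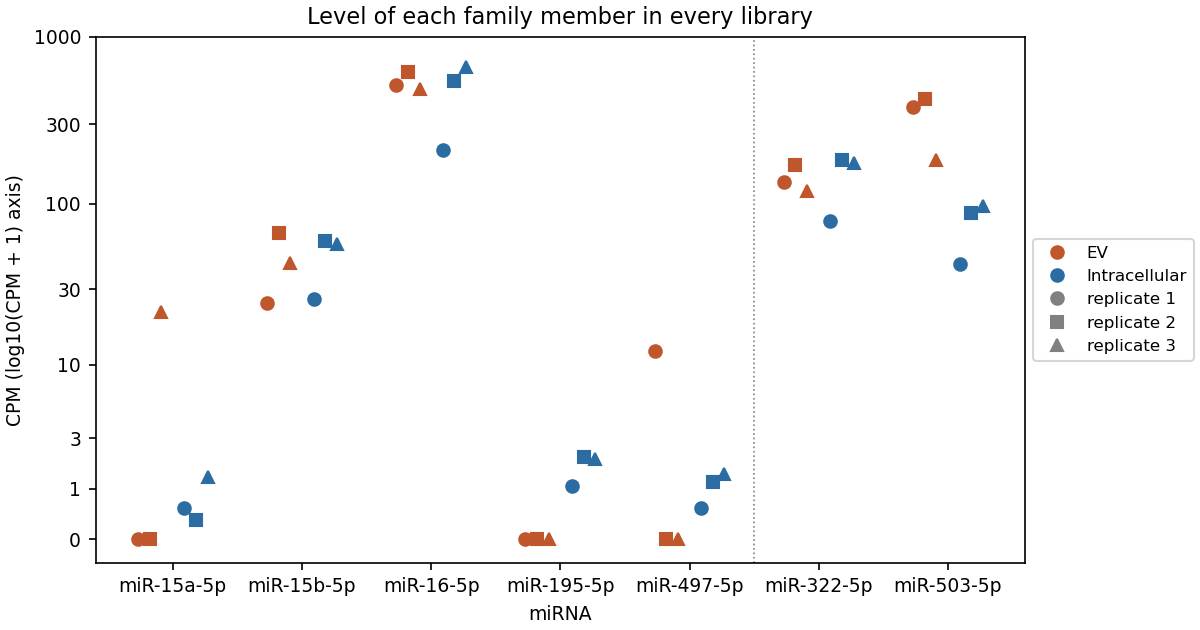
Level in CPM, on an axis of log10(CPM + 1), of the 5 members and, right of the dotted line, of miR-322-5p and miR-503-5p, 1 point per library. miR-16-5p lies at 210.4 CPM or more in all 6 libraries, while miR-195-5p lies at 0 in the 3 EV libraries and at most at 2.11 CPM in the Intracellular ones.

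miR-195-5p and miR-497-5p were scarce. miR-195-5p had 0 counts in the 3 EV libraries and 2, 7 and 18 counts in Intracellular replicates 1, 2 and 3, or 1.09, 2.11 and 2.03 CPM. miR-497-5p had 1, 0 and 0 counts in EV, against 1, 4 and 13 counts in Intracellular libraries, or 0.544, 1.21 and 1.47 CPM. Within the cells the pair thus lay between 0.544 and 2.11 CPM in each library. In EV a level of this size was not detectable at this depth: 0 counts of 279118 allow up to 10.7 CPM (3 counts over the pooled EV libraries), above every Intracellular value of either miRNA. The share of the pair among all counts was 0.000410% ± 0.000711 in EV, against 0.000282% ± 0.000103 in Intracellular libraries (SD, n = 3 each, 2-sided exact permutation p = 1).

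miR-15a-5p, the partner of miR-16 at its other locus, was as scarce. It had 0, 0 and 2 counts in EV, the last being 21.7 CPM, and 1, 1 and 12 counts in Intracellular libraries, or 0.544, 0.302 and 1.35 CPM. EV replicate 3 alone among the EV libraries held any of it.

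The counts found in EV were set beside those expected if EV held each miRNA at its pooled Intracellular share. For miR-16-5p 152 counts were found (95% exact Poisson interval 128.8 to 178.2) and 159.3 expected. For miR-15b-5p 13 were found (6.92 to 22.2) and 14.9 expected. Both expected values lay within the interval, which covers counting error only. With the Intracellular libraries weighted equally, 131.1 counts of miR-16-5p and 13.3 of miR-15b-5p were expected, also within the intervals. Fewer than 1 count was expected for each of the other members. miR-195-5p had 0 found and 0.538 expected, miR-497-5p had 1 found and 0.359 expected, and miR-15a-5p had 2 found and 0.279 expected. The ratio of found to expected was 7.17 for miR-15a-5p, with an interval of 0.868 to 25.9, and 2.79 for miR-497-5p, with an interval of 0.0706 to 15.5. Both intervals take in a ratio of 1, so that no difference was detectable for these miRNAs at this depth. With equal weights 0.205 counts of miR-15a-5p were expected, just under the lower bound of 0.242 for its 2 counts, which came from 1 library.

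**Figure D2:**
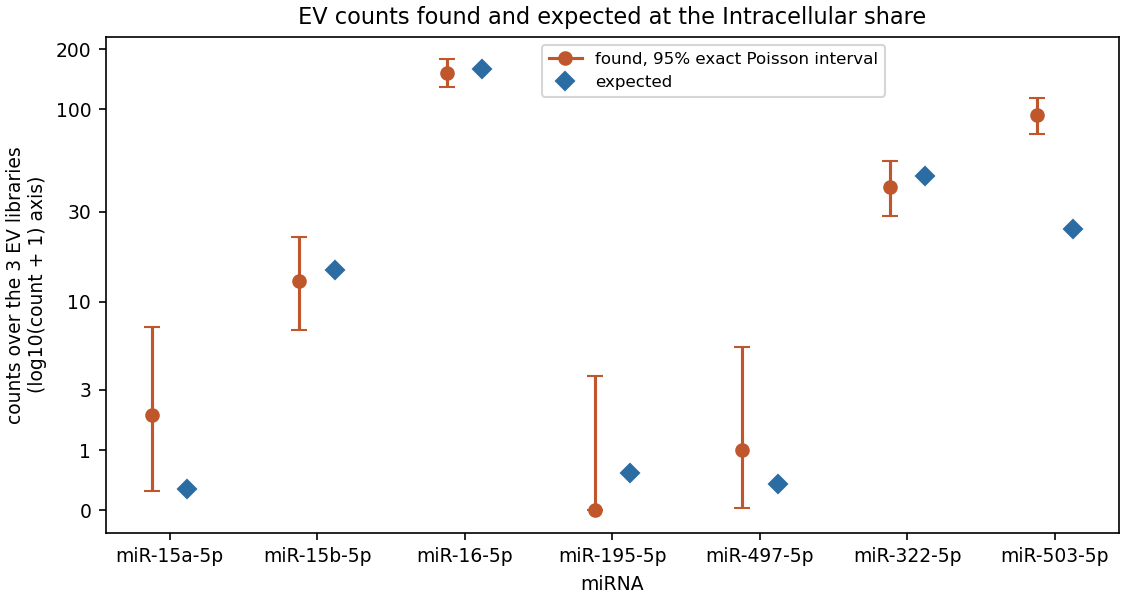
Counts found over the 3 EV libraries with their 95% exact Poisson interval (circles) and counts expected at the pooled Intracellular share (diamonds), on an axis of log10(count + 1). The expected value lies within the interval for all 5 members but far below it for miR-503-5p, with 93 counts found and 24.5 expected.

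Whether the vesicles differed from the cells in these miRNAs was tested with edgeR's quasi-likelihood test over all 328 miRNAs that passed the filter on low counts, EV minus Intracellular, with a call at a Benjamini-Hochberg adjusted p under 0.05. Of the 5 members 2 passed the filter, miR-16-5p and miR-15b-5p, and neither was called (0 higher, 0 lower), nor had either an unadjusted p under 0.05 or a call by DESeq2. Over all tested miRNAs 25.6% were called higher in EV, against 17.1% lower. The log2 fold change of miR-16-5p was -0.35 (SE 0.24, 95% interval -0.86 to 0.16, edgeR adjusted p = 0.259). That of miR-15b-5p was -0.63 (SE 0.44, 95% interval -1.55 to 0.29, edgeR adjusted p = 0.259). The intervals leave room for a lower level in EV by 0.86 and 1.55 on the log2 scale, so equal levels are not shown.

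The sign of miR-16-5p depended on the scaling of the libraries. It was 0.20 with total counts (95% interval -0.56 to 0.97, edgeR adjusted p = 0.752) and -0.61 with upper-quartile scaling, where it was called lower (edgeR adjusted p = 0.0270), as were 28% of all tested miRNAs. The median over the 328 miRNAs moved with it, at -0.06 with TMM, 0.55 with total counts and -0.32 with upper-quartile scaling. Relative to that median miR-16-5p lay at -0.29, -0.34 and -0.29 with these scalings. miR-15b-5p lay at -0.57, -0.61 and -0.58 relative to the median and was called with none of them. Without Intracellular replicate 1, which stood apart in its TMM factor, miR-16-5p was called lower at -0.50 (edgeR adjusted p = 0.0481) and miR-15b-5p was not, at -0.68 (edgeR adjusted p = 0.246). In that comparison 17.7% of all tested miRNAs were called lower.

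**Figure D3:**
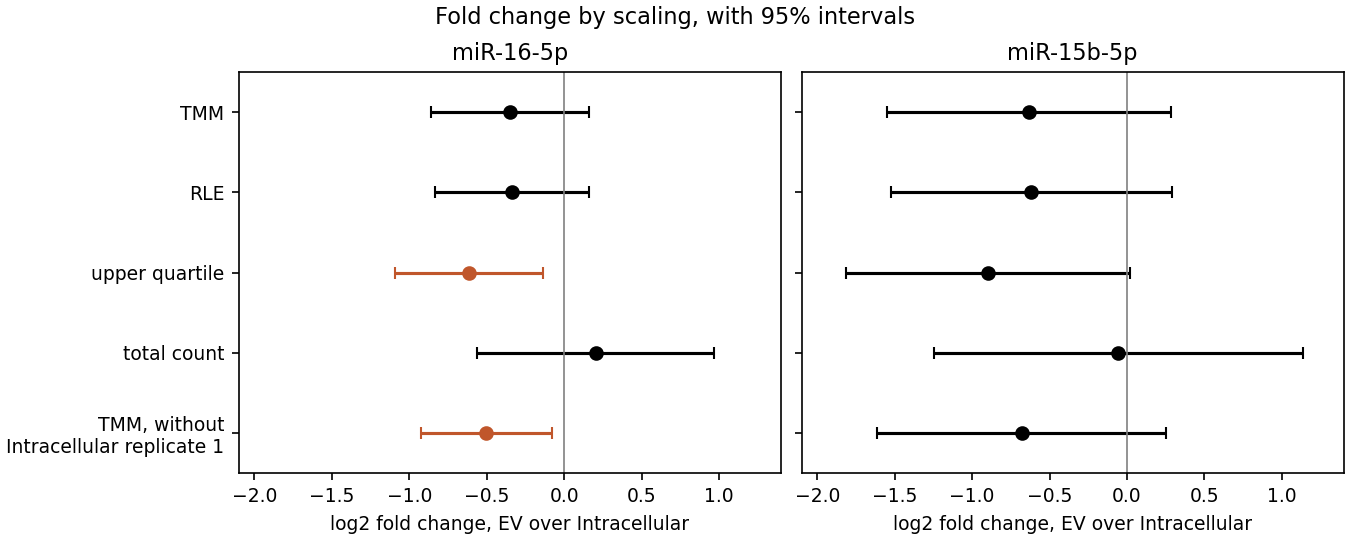
Log2 fold change (EV over Intracellular) of miR-16-5p and miR-15b-5p with 95% intervals by edgeR, for 4 scalings and without Intracellular replicate 1. Black marks values that were not called and orange those called, which are miR-16-5p with upper-quartile scaling and without Intracellular replicate 1.

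A share of a library's counts rests on total-count scaling, while a ratio between miRNAs of the same library needs no scaling between libraries. The 5 members together took 0.0554%, 0.0682% and 0.0552% of the counts in EV, against 0.0239%, 0.0606% and 0.0718% in Intracellular libraries. The means were 0.0596% ± 0.00743 in EV, against 0.0521% ± 0.0251 in Intracellular libraries, and differed by more than the SD within EV but less than that within Intracellular libraries (SD, n = 3 each, 2-sided exact permutation p = 0.9, where 3 against 3 samples give no p below 0.1). Without Intracellular replicate 1 the difference turned sign, to -0.00658 percentage points. The log2 ratio of miR-15b-5p over miR-16-5p, partners of 1 locus, was -3.84, -3.04 and -3.20 in EV and -2.99, -3.18 and -3.53 in Intracellular libraries. The groups overlapped, and their means differed by -0.13, less than the SD within either group (exact permutation p = 0.6, or 0.75 adjusted over 5 ratios).

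The passenger arms, the strands opposite to the guides, were described for the 3 that have a row. miR-16-3p had 0 counts in EV, against 1 in all Intracellular libraries, where its guide had 7999. miR-15b-3p had 2, 3 and 0 counts in EV, against 45, 66 and 186 in Intracellular libraries. In Intracellular replicate 1 it came close to the 48 counts of its guide, with a log2 ratio of -0.09, while replicates 2 and 3 had -1.57 and -1.43. The EV ratios of 0, -1 and -2.32 rest on 13 guide counts in all and overlapped these (exact permutation p = 1, unchanged by adjustment over 5 ratios). miR-195-3p had 2, 0 and 0 counts in EV, against 0, 8 and 11 in Intracellular libraries, against 0 and 27 pooled counts of miR-195-5p in EV and Intracellular libraries. Of the passenger arms only miR-15b-3p was tested, and it was not called (log2 fold change -0.94, SE 0.78, edgeR adjusted p = 0.347).

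The seed family as a whole had another make-up in EV, with a larger share of a miRNA outside the 5. This was miR-503-5p, encoded beside miR-322 on chromosome X, which had 382, 426 and 184.1 CPM in EV, against 43.0, 87.8 and 97.1 CPM in Intracellular libraries. All EV values lay above all Intracellular ones, as the groups did for 45.4% of tested miRNAs in either direction. Its log2 fold change was 1.52 (SE 0.28, edgeR adjusted p = 0.000209), and it was also called with the other scalings. miR-322-5p, which has the seed of the 5 members, had 135.4, 170.5 and 119.1 CPM in EV, against 78.8, 182.9 and 175.2 CPM in Intracellular libraries, and was not called (-0.61, SE 0.27, edgeR adjusted p = 0.0786). With upper-quartile scaling it was called lower (-0.87, edgeR adjusted p = 0.0103), and with total counts it lay at -0.034 and was not called.

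Of the counts of the 7 rows with this seed core, miR-16-5p took 48.3%, 48.1% and 57.0% in EV, against 58.4%, 61.9% and 66.3% in Intracellular libraries. Each EV share lay below each Intracellular share. The means were 51.1% ± 5.05 in EV, against 62.2% ± 3.96 in Intracellular libraries (SD, n = 3 each, exact permutation p = 0.1, below which 3 against 3 cannot go). The share of miR-15b-5p was 4.18% ± 1.63 in EV, against 6.60% ± 0.776 in Intracellular libraries (exact permutation p = 0.1). The share of miR-503-5p was 30.2% ± 7.57 in EV, against 10.6% ± 1.16 in Intracellular libraries (exact permutation p = 0.1). Since shares of a whole move against each other, the lower shares of miR-16-5p and miR-15b-5p do not show a lower level. Against miR-16-5p itself, the log2 ratio of miR-503-5p was 1.79 higher in EV, with no overlap (exact permutation p = 0.1, or 0.25 adjusted over 5 ratios). The log2 ratio of miR-322-5p over miR-16-5p differed by -0.23, with overlap (exact permutation p = 0.3, or 0.5 adjusted). These 2 ratios were chosen after the values were seen. The shares of the 7 rows were not among the planned comparisons, and their p-values are not adjusted over the rows.

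**Figure D4:**
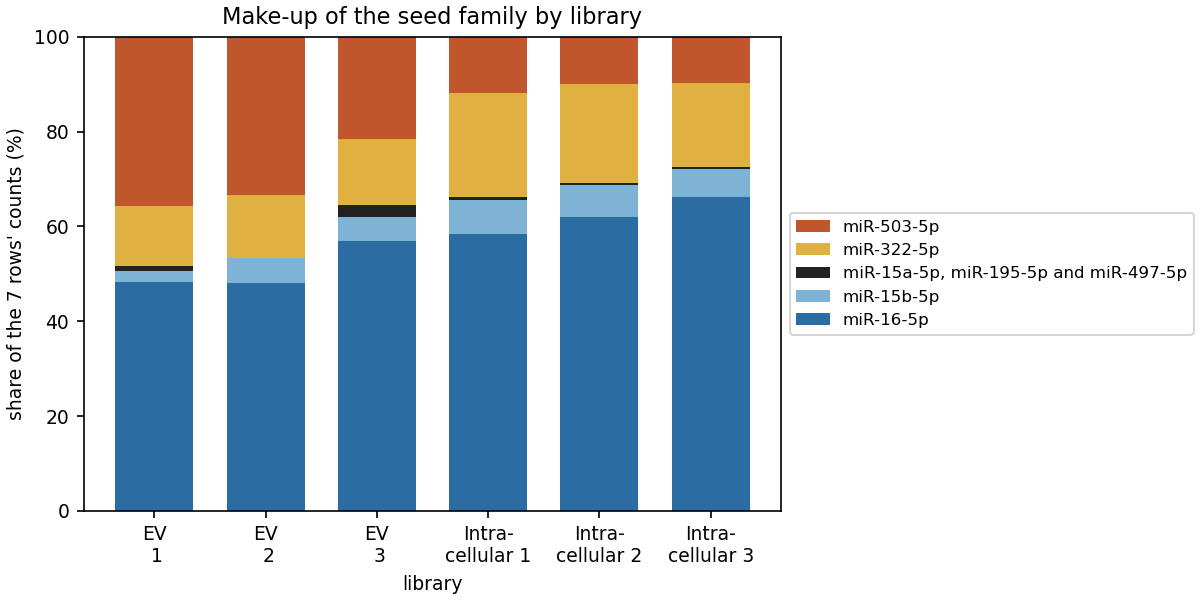
Share in percent of the summed counts of the 7 rows with the seed core held by each miRNA, 1 bar per library. miR-16-5p takes 48.1% to 57.0% in EV, against 58.4% to 66.3% in Intracellular libraries, and miR-503-5p takes 21.5% to 35.6% in EV, against 9.80% to 11.9% in Intracellular libraries.

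miR-16-5p was also set beside 9 other miRNAs often used as references. Over the 6 libraries its log2(CPM + 1) had an SD of 0.597 with total counts, the eighth smallest of 10, and of 0.352 with TMM scaling, the fourth smallest. With total counts the SD was 0.175 within EV and 0.876 within Intracellular libraries, where replicate 1 was low. miR-93-5p had the smallest SD of the 10 with TMM scaling (0.149) and miR-26a-5p with total counts (0.220), so the order depended on the scaling. miR-423-5p, another common reference, had the largest SD either way, at 2.16 with total counts and 1.81 with TMM scaling. With TMM scaling 2 of the 10 references were called higher and 5 lower, and with total counts 2 higher and 0 lower. Over all tested miRNAs 25.6% were called higher and 17.1% lower with TMM scaling, and 32.6% and 0.915% with total counts. miR-16-5p, miR-191a-5p and miR-93-5p were called in neither. Upper-quartile scaling called miR-16-5p lower, and miR-191a-5p as well (-0.50, edgeR adjusted p = 0.0394).

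**Figure D5:**
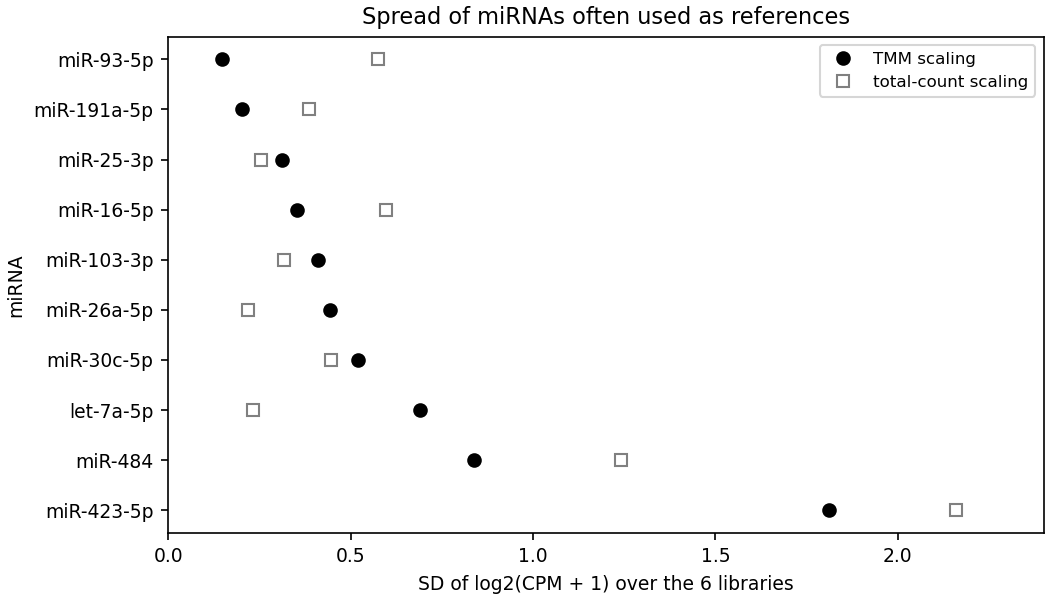
SD over the 6 libraries of log2(CPM + 1) for 10 miRNAs often used as references, with TMM scaling (filled circles) and total-count scaling (open squares). miR-16-5p lies at 0.352 with TMM and 0.597 with total counts, and miR-423-5p lies farthest right.

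Because red blood cells are rich in miR-16, the erythroid miRNAs were read beside it. miR-486 had 14, 13 and 12 counts in EV, against 8, 4 and 11 in Intracellular libraries. miR-451-5p had 4, 3 and 3 counts in EV, against 3, 13 and 7 in Intracellular libraries. Counts of miR-16-5p were 2.33, 4.06 and 3 times the sum of both in EV, against 35.2, 105.8 and 323 times in Intracellular libraries, with no overlap. Their part in the level of miR-16-5p was not tested.

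The miRNAs whose profile over the 6 libraries was most like that of miR-16-5p were miR-30a-5p, miR-126a-3p and miR-322-5p. Their root mean square difference from it in centred log2(CPM + 1) was 0.164, 0.201 and 0.218, against a median of 0.465 over 178 known miRNAs with at least 100 CPM in a group. All 3 had their lowest CPM in Intracellular replicate 1, as did miR-16-5p, whose profile they were chosen to resemble. For miR-195-5p the nearest were miR-1193-3p, miR-127-3p and miR-499-5p (0.362, 0.381 and 0.387, against a median of 0.997 over 179), but its EV values are all 0.

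Other miRNAs tied to proliferation were counted from lists. As background, 25.6% of all tested miRNAs were called higher and 17.1% lower with TMM scaling. Of the miR-17 family and its clusters, known to promote the cell cycle, 8 of 10 were tested. With TMM scaling 2 were higher, miR-92a-3p (log2 fold change 2.53, from 17 EV counts) and miR-19b-3p (1.31), and 1 was lower, miR-25-3p (-0.53), whose sign turned with total counts (0.10, not called). With total counts 3 were higher, with miR-20a-5p added (0.92, edgeR adjusted p = 0.0456), and 0 lower. Of 11 listed members of the let-7 and miR-34 families, known to restrain it as the miR-16 family does, 10 were tested. The list leaves out let-7g-5p, which was called lower with TMM scaling (-0.86, edgeR adjusted p = 0.0287). On the list, with TMM scaling, miR-34a-5p (0.75) and miR-34c-5p (0.66) were higher and 6 let-7 members were lower. With upper-quartile scaling neither miR-34a-5p (0.51, edgeR adjusted p = 0.0776) nor miR-34c-5p (0.42, edgeR adjusted p = 0.103) was called. With total counts the numbers were 2 higher and 2 lower, where 32.6% and 0.915% of all tested miRNAs were called higher and lower. Median log2 fold changes with TMM scaling were -0.49 over the 2 tested members, -0.02 over the miR-17 list, -0.96 over the let-7 and miR-34 list and -0.06 over all 328. With total counts these medians were 0.074, 0.57, -0.22 and 0.55, so that the sign turned for the members, for the miR-17 list and over all 328.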

How the data were processed

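Libraries were made by ligating adapters to both RNA ends, PCR and size selection on a gel, per the labels' protocols. Ligation and PCR favour some sequences, and molecular identifiers are not named, so the Poisson intervals and the floors are for counting error alone. The edgeR intervals also take in the scatter between libraries. The submitters' processing notes name cutadapt and the build Rnor_6.0. The sources used here do not name an aligner, a miRNA database or a counting program. The deposited table holds whole-number counts per miRNA made by the authors (552 known and 519 predicted miRNAs). The deposited TPM table, also by the authors, is those counts brought to a total of 1000000, without regard to length (largest difference 4.78e-05). No gene coordinates are printed, since the gene table is of another build.

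The group and replicate number in a column's name gave its sample. Counts were tested with edgeR 4.0.16 in R 4.3.3 (TMM, filterByExpr with minimum count 10 and minimum total 15, robust quasi-likelihood fit, no replicate block, 2-sided). Limma 3.58.1 and DESeq2 1.42.0 served as alternatives. Standard errors came from the F statistic. The procedure was tested on simulated data. Ratios and log2 levels used a prior count of 1. Values per library were compared by exact permutation tests.

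Members, lists and tests were chosen with earlier results of these data known. Named miRNAs are the members, their passenger arms, rows sharing bases 2 to 7, up to 4 of each list and the 3 nearest profiles to miR-16-5p and miR-195-5p. List members were to be picked by mean CPM, which was not kept throughout. Those of the miR-17 list and of the let-7 and miR-34 list were named for being called. let-7g-5p lies outside the lists. Ratios planned for miR-15a-5p, miR-195-5p and miR-497-5p were not computed, since each had 0 counts in at least 2 EV libraries. Ratios with miR-322-5p and miR-503-5p were added after the values were seen, and the shares within the wider seed family were not planned.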

Additional observations from a re-analysis of the deposited data

How the results depend on the processing

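Beside the scalings given above, miR-16-5p was at 0.35 by limma on log2(CPM + 1) and on log2(CPM + 0.1), a positive sign as with total counts (0.20), and at -0.61 with upper-quartile scaling. Leaving out each library moved it between -0.50 and -0.077, and miR-15b-5p between -1.06 and -0.33. Over all alternatives the adjusted p ranged from 0.0270 to 0.842 for miR-16-5p and from 0.0952 to 0.952 for miR-15b-5p. The number of members called was 0 higher throughout and 0 lower except with upper-quartile scaling (1), and 0 to 1 with libraries left out. For miR-322-5p limma gave 0.040 and 0.041 with these pseudocounts, and upper-quartile scaling called it lower at -0.87.

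Over the 328 tested miRNAs 84 were higher and 56 lower. A change of filter changed the set of miRNAs tested, so numbers given for other filters are not out of 328. Without a filter 197 were higher. The lower ones numbered 3 with total counts, 92 with upper-quartile scaling, 36 with at least 10 counts in 3 libraries, and 2 and 3 by limma with pseudocounts of 1 and 0.1. With libraries left out 62 to 91 were higher and 18 to 58 lower, with 18, 26 and 36 without EV replicates 1 and 2 and Intracellular replicate 3. With libraries left out the difference in share ranged from -0.00658 to 0.0174 percentage points, that in the ratio of miR-15b-5p to miR-16-5p from -0.29 to 0.11 and that in the arms of miR-15b from -0.63 to 0.53. With a prior count of 0.25 these ratios differed by -0.37 and -0.71, against -0.13 and -0.077 with a prior count of 1. The ratio of miR-15b-5p to miR-16-5p turned sign without EV replicate 1 (0.11), and the arms without EV replicate 3 (0.53) or Intracellular replicate 1 (0.39). Same-numbered samples deviated together little (r of 0.034, 0.089 and -0.023). EV replicates 1 and 2 correlated best with their own number, and EV replicate 3 did not. With 3 libraries per group and few counts in EV, such r cannot show whether the samples were paired. With the replicate block 87 miRNAs were higher and 46 lower, and miR-16-5p was at -0.32 and miR-15b-5p at -0.64, neither called. The cause of these differences was not tested. Depth limits the EV libraries, in which 0 counts allow up to 10.7 CPM.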

Other observations

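The core of the seed, AGCAGC, also opens miR-103-3p and miR-107-3p, where it starts at base 1 in place of base 2. These were the 2 deposited rows with that shift, and were chosen after the values were seen. miR-103-3p had 2032, 2292 and 2556 CPM in EV and 1590, 2778 and 2822 CPM in Intracellular libraries, with overlap, and so exceeded miR-16-5p in every library. It was called lower with TMM scaling (log2 fold change -0.67, SE 0.19, edgeR adjusted p = 0.00876) but not with total counts (-0.06, edgeR adjusted p = 0.909). miR-107-3p had 283.2, 142.1 and 292.4 CPM in EV and 112.6, 303.9 and 180.9 CPM in Intracellular libraries. It was not called (-0.33, SE 0.30, edgeR adjusted p = 0.381), and its sign turned with total counts (0.25).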
